A study of Mus musculus with 86 samples.

Results

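The interferon response genes and the genes of the major histocompatibility complex (MHC) were followed in Dll1 heterozygous mice against wild-type mice. Members were all genes on the cDNA array whose symbol belongs to the interferon regulatory factors (Irf), the Stat factors, the interferon receptors (Ifnar, Ifngr), the interferon-induced families Ifi, Ifit, Ifitm, Isg, Oas and Gbp, the H2 genes, Tap1 or B2m. The rule used symbols only and no measured value. It found 48 genes with 58 probes, of 9030 gene symbols and 20794 probes on the array, and the probe with the most values stood for each gene. By role they were 3 interferon receptor chains, 13 transcription factors, 19 induced effectors, 6 MHC class I genes, 5 MHC class II genes and 2 others whose symbols match the rule while their proteins belong to neither group (Irf2bp1 and H2-Ke6). No probe carried the symbol Mx1 or Tap2, so these genes were not analysed here.

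Interferons bind receptor pairs on the cell surface, Ifnar1 with Ifnar2 for type I interferons and Ifngr1 with Ifngr2 for interferon gamma. The receptors signal through Janus kinases to Stat proteins, which enter the nucleus and, together with Irf factors, switch on a large set of genes. These include enzymes that sense or degrade viral RNA (Oas, Isg20), membrane and GTP-binding proteins that block pathogens (Ifitm, Gbp), and the MHC. MHC class I presents peptides from inside the cell and is carried by nearly all cells, with B2m as its light chain and Tap1 as part of the peptide transporter. MHC class II is made mainly by B cells, macrophages, dendritic cells and thymic epithelium, where H2-DMa, H2-DMb1 and H2-Oa control its peptide loading. Dll1 is a ligand of the Notch receptors.

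All heterozygous animals carried the Dll1 tm1Gos allele, in which lacZ interrupts one copy of Dll1, and all animals were males. Heterozygous C3H mice aged 15 weeks were measured in liver, thymus, spleen and brain (5 mice per organ), each against 1 RNA pool of wild-type C3H males of the same age. Heterozygous 129SvJ/Iso mice aged 16 weeks were measured in liver (4 mice), spleen (5 mice) and brain (4 mice) against 1 pool of wild-type 129SvJ/Iso males, and in thymus as 1 heterozygous RNA pool against 1 wild-type pool on 6 arrays. The same numbered mice gave the different organs of a strain, and the 86 arrays included repeats of a mouse with the dyes exchanged. Each value below is a log2 ratio, heterozygous over wild type, so values above 0 stand for more RNA in the heterozygous mouse. A mouse's value is the mean of its 2 dye orientations. Mouse 1 in C3H spleen is the exception, with 1 array (heterozygous RNA in Cy3), so the dye is not balanced in its spleen values. Because the ratio leaves out absolute level, the tissue of a sample could not be checked against its markers, and levels of different genes were not compared. In whole organs, fewer cells of a type and less RNA per cell cannot be told apart.

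The array medians lay between -0.25 and 0.31. The direction of the deposited ratios is not named in the labels and is therefore likely rather than certain. In C3H spleen and 129SvJ/Iso brain the arrays of 1 mouse with exchanged dyes correlated no better (median Spearman rho -0.04 and -0.11) than arrays of different mice (-0.02 and -0.11), so the direction of these 2 groups is doubtful, and the sign turned on the Cy5 arrays is given beside their main genes, counts and medians. In C3H brain and 129SvJ/Iso spleen this rho was higher than between mice but also near 0 (0.02 against -0.03, and 0.001 against -0.03). The direction of these groups is thus only weakly settled. C3H arrays had 3.06 to 10.2% of spots missing or not used (group means), 129SvJ/Iso arrays 21.9 to 27.0%. Of the 48 members, 24 could be tested in all 7 groups of single mice (values in at least 3 mice) and H2-M3 in the fewest, 2. Several cDNA probes can bind RNA of close relatives (H2-K1, H2-Q10 and H2-T23, the Oas1 genes, the Ifitm genes), and such signals cannot be told apart.

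Of the members, 43 had a promoter sequence in RefSeq (GRCm38.p6; 250 bases before to 50 bases after the start). The core of the interferon-stimulated response element, the site to which Stat and Irf complexes bind, was searched on both strands as 2 copies of GAAA with any 2 bases between them. It was present in 10 member promoters (23.3%): B2m, H2-T23, Ifi205, Ifit3, Ifitm2, Ifitm3, Irf2, Oas1a, Stat2 and Stat4. Of all 32851 promoters 3.44% held it, and 3.99% of 27025 genes had such a promoter. The gamma-activated site TTCNNNGAA, bound by Stat dimers, was in 10 members against 9.55% of genes, and CCAAT was in 23 members against 41.1% of genes. The 4 promoters below are shown because they belong to a member of class I followed in every organ (B2m), and to 3 members of the motif that take part in the brain results. Capitals mark that core or its reverse complement, which in none of them overlapped TTCNNNGAA.
B2m: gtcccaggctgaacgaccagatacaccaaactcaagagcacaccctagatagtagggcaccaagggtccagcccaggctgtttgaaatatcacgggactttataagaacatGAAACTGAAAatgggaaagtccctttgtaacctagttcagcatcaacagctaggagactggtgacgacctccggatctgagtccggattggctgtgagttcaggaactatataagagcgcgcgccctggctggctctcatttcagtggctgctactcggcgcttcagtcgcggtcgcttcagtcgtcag
H2-T23: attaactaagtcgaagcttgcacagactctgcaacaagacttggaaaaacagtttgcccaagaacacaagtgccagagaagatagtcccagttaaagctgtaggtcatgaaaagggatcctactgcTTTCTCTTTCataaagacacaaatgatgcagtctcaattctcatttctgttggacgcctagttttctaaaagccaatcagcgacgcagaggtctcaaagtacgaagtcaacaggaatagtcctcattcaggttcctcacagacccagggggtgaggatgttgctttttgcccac
Ifi205: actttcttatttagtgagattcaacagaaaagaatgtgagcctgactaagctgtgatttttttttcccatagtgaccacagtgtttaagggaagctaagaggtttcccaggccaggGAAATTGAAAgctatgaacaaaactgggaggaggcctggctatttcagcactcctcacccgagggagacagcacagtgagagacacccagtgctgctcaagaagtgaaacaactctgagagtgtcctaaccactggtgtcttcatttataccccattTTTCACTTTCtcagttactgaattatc
Ifit3: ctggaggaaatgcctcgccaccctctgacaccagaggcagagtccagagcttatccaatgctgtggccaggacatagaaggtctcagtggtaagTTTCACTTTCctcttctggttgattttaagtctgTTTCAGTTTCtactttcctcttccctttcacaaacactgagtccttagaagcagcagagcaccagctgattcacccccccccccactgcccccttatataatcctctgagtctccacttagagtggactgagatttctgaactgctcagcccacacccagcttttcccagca
The B2m promoter lay at chr2:122147437-122147736 on the plus strand with 1 match 139 bases before the start. That of H2-T23 lay at chr17:36032652-36032951 on the minus strand with 1 match 124 bases before the start. Ifi205 (chr1:174031706-174032005, minus strand) and Ifit3 (chr19:34583279-34583578, plus strand) had 2 matches each. A match describes letters in this window and is no measured binding site.

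No member passed the test in any of the 7 groups of single mice (limma against 0, Benjamini-Hochberg adjusted p under 0.05 over all probes), and no other probe did. The smallest adjusted p of a member was 0.36 (liver), 0.50 (thymus), 0.80 (spleen) and 0.56 (brain) in C3H mice and 0.35 (liver), 0.92 (spleen) and 0.79 (brain) in 129SvJ/Iso mice. What follows therefore gives values and counts, and none of them is a called change. Before adjustment, 9 of 45 members in C3H liver had a p under 0.05 against 13.8% of all probes tested there, and 8 of 45 in C3H brain against 8.76%. The counts were 3 of 45 in C3H thymus (8.13% of probes), 2 of 43 in C3H spleen (5.95%), 5 of 37 in 129SvJ/Iso liver (14.1%), 2 of 40 in 129SvJ/Iso spleen (4.78%) and 1 of 38 in 129SvJ/Iso brain (5.32%). The higher and lower counts were 4 and 5 in C3H liver (6.11 and 7.66% of probes), 0 and 3 in C3H thymus (2.82 and 5.31%), 1 and 1 in C3H spleen (3.08 and 2.86%), and 2 and 6 in C3H brain (3.73 and 5.03%). In 129SvJ/Iso mice they were 3 and 2 in liver (7.86 and 6.25%), 1 and 1 in spleen (2.42 and 2.35%) and 1 and 0 in brain (2.47 and 2.85%). With the sign turned, the counts were 3 of 43 in C3H spleen (6.21% of probes) and 6 of 38 in 129SvJ/Iso brain (17.1%). The members' share was above that of all probes by more than 5 percentage points in C3H liver and C3H brain, but over left-out mice the count in C3H liver ranged from 4 (without mouse 4) and 5 (without mouse 3) to 15 (without mouse 2). The shares of all probes in these left-out fits are not given here, so this range is no result about the members.

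The member medians were small in every organ. In C3H mice they were -0.07 in liver (all probes 0.03), 0.02 in thymus (0.00), -0.01 in spleen (0.00) and 0.00 in brain (0.01). In 129SvJ/Iso mice they were -0.11 in liver (all probes 0.07), -0.09 in spleen (-0.01) and 0.01 in brain (0.02). Turned, they were -0.07 in C3H spleen and 0.08 in 129SvJ/Iso brain. In C3H liver 27 of 45 members had a mean below 0, where 43.4% of all probes did. Ifi30, a thiol reductase of antigen processing, was the 1 member of 37 tested in at least 6 groups whose mean had the same sign in all of them, below 0 from -0.52 to -0.10 in 6 groups (but 0.20 in 129SvJ/Iso brain when turned), and 3.5% of all probes had 1 sign throughout. Members of 1 sign in every mouse measured numbered 10 in C3H liver (16.7% of probes), 6 in C3H thymus (12.3%), 4 in C3H spleen (12.2%), 7 in C3H brain (12.9%), 10 in 129SvJ/Iso liver (34.4%), 3 in 129SvJ/Iso spleen (14.4%) and 10 in 129SvJ/Iso brain (20.2%). In the 129SvJ/Iso mice the median SD between mice over members was 0.71 in liver, against 0.29 in C3H liver.

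**Figure D1:**
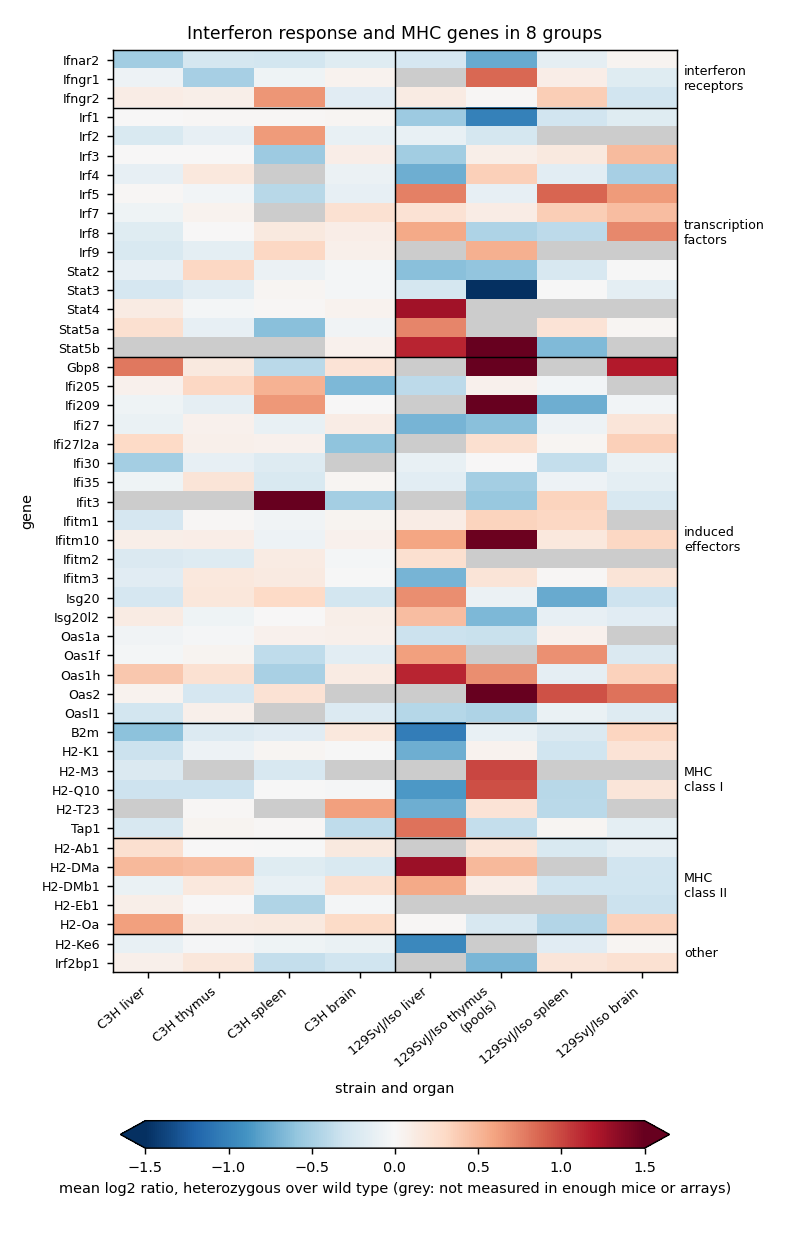
Mean log2 ratio, heterozygous over wild type, of the 48 members (down the page, by role) in the 8 strain and organ groups (across). Blue is below 0 and red above 0, the colours are saturated beyond 1.5 in size, and grey marks genes measured in fewer than 3 mice (fewer than 4 arrays for the pools). No role has 1 colour in all 8 groups.

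Among the receptors, Ifnar2, a chain of the type I interferon receptor, was below 0 in all 5 C3H livers, with -0.75, -0.50, -0.27, -0.40 and -0.68 in mice 1 to 5 (mean -0.52 ± 0.20, SD, n = 5; adjusted p = 0.36). It had the smallest unadjusted limma p of all members in that organ, and every mouse lay below the wild-type pool. In C3H thymus Ifnar2 was below 0 in 4 of 5 mice (-0.27 ± 0.22, SD). The other 2 Ifnar2 probes averaged -0.29 ± 0.63 and -0.11 ± 0.08 (SD) in C3H liver, so all 3 had the same sign there, while in C3H thymus the other 2 averaged 0.38 ± 0.83 (n = 3) and -0.21 ± 0.38. In 129SvJ/Iso liver the first probe averaged -0.25 ± 0.77 (n = 4) and another -1.07 ± 0.45 (n = 3).

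Ifngr1, the ligand-binding chain of the interferon gamma receptor, was below 0 in all 5 C3H thymi, with -0.77, -0.36, -0.43, -0.37 and -0.56 (mean -0.50 ± 0.17, SD, n = 5; adjusted p = 0.50). Its partner chain Ifngr2 averaged 0.08 ± 0.31 in the same thymi, with 2 mice above 0 and 3 below. In C3H liver, spleen and brain Ifngr1 averaged -0.08, -0.06 and 0.06, all within 1 SD of 0.

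Among the transcription factors, Stat3, which carries signals of interleukins and interferons, was below 0 by nearly the same amount in every C3H liver: -0.22, -0.22, -0.29, -0.27 and -0.24 (mean -0.25 ± 0.03, SD, n = 5; adjusted p = 0.36). Its other probe averaged -0.19 ± 0.30 there, with 4 of 5 mice below 0. In 129SvJ/Iso liver Stat3 averaged -0.26 ± 0.27 with 3 of 4 mice below 0, and its other probe -0.88 ± 0.35 with all 4 below. Stat3 was thus below 0 on both probes in the livers of both strains, while no test called it. In the other C3H organs its mean lay between -0.16 and 0.03 on the first probe, and the other probe averaged -0.27 in thymus, 0.48 in spleen and 0.07 in brain.

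Irf3, which is activated when cells sense viral nucleic acid, was below 0 in all 5 C3H spleens, with -0.13, -1.19, -0.66, -0.25 and -0.48 (mean -0.54 ± 0.42, SD; adjusted p = 0.80). With the sign turned on the Cy5 arrays the mean was -0.20. In C3H liver, thymus and brain Irf3 averaged 0.00, 0.01 and 0.10, and spleen was the organ that stood apart. In 129SvJ/Iso brain Irf3 was above 0 in all 4 mice (0.47 ± 0.39) and kept that sign when turned (0.59), whereas Irf4, a lymphocyte factor measured in 3 mice, averaged -0.50 ± 0.32 and 0.56 when turned.

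Stat5b, a mediator of growth hormone signalling in liver, had 1.54, 1.19 and 0.72 in the 3 129SvJ/Iso livers where it was measured (mean 1.15 ± 0.41, SD; adjusted p = 0.35). It was measured in too few C3H livers for a test. Irf5, active in macrophages and B cells, had 1.95, 0.71, 0.09 and 0.74 in 4 129SvJ/Iso spleens, all above 0. Stat2, the partner of Irf9 in type I interferon signalling, was within -0.13 to -0.03 in the 5 C3H spleens (mean -0.09 ± 0.04, and -0.05 when turned). Irf1, itself switched on by interferon gamma, averaged 0.01 (liver, n = 3), 0.02 (thymus), 0.01 (spleen) and 0.03 (brain) in C3H mice, and in 129SvJ/Iso mice -0.55 in liver, -0.29 in spleen and -0.18 in brain, with an SD between 0.39 and 0.71 in all 7.

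Of the induced effectors, Isg20, an RNA exonuclease, had an unadjusted limma p under 0.05 in 4 of the 7 groups, the most of the 48 members. The share of all probes that reached 4 groups was not computed. In C3H liver it had -0.19, -0.15, -0.38, -0.52 and -0.03 (mean -0.26 ± 0.20, SD; adjusted p = 0.36). In C3H spleen it had 0.37, 0.31, 0.34, 0.26 and 0.23 (mean 0.30 ± 0.06; adjusted p = 0.80), so every C3H spleen lay above and every C3H liver below the wild-type pool. With the sign turned on the Cy5 arrays the C3H spleen mean was 0.05.

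In 129SvJ/Iso mice Isg20 stood the other way round. It had 1.16, 0.44 and 0.50 in the 3 livers measured (mean 0.70 ± 0.40, SD), and -0.73, -0.18, -1.32, -0.10 and -1.45 in the 5 spleens (mean -0.76 ± 0.63; adjusted p = 0.92), where the mean was 0.02 with the sign turned on the Cy5 arrays. As means over both dyes, no liver overlapped a spleen in either strain, and the share of all probes without overlap is not given here. The dyes disagreed in sign for the 129SvJ/Iso liver of mouse 2 (-0.68 in Cy3, 1.56 in Cy5). They also did in the spleens of mouse 2 (-0.47 and 0.11) and mouse 4 (-0.24 and 0.04). The C3H brains averaged -0.27 ± 0.27 (4 of 5 below 0), while the C3H thymi ranged from -0.64 to 0.83 with no common sign. In C3H brain the mice had -0.345 to -0.98 with heterozygous RNA in Cy5, but 0.47, 0.12, 0.12, 0.02 and -0.36 in Cy3.

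**Figure D2:**
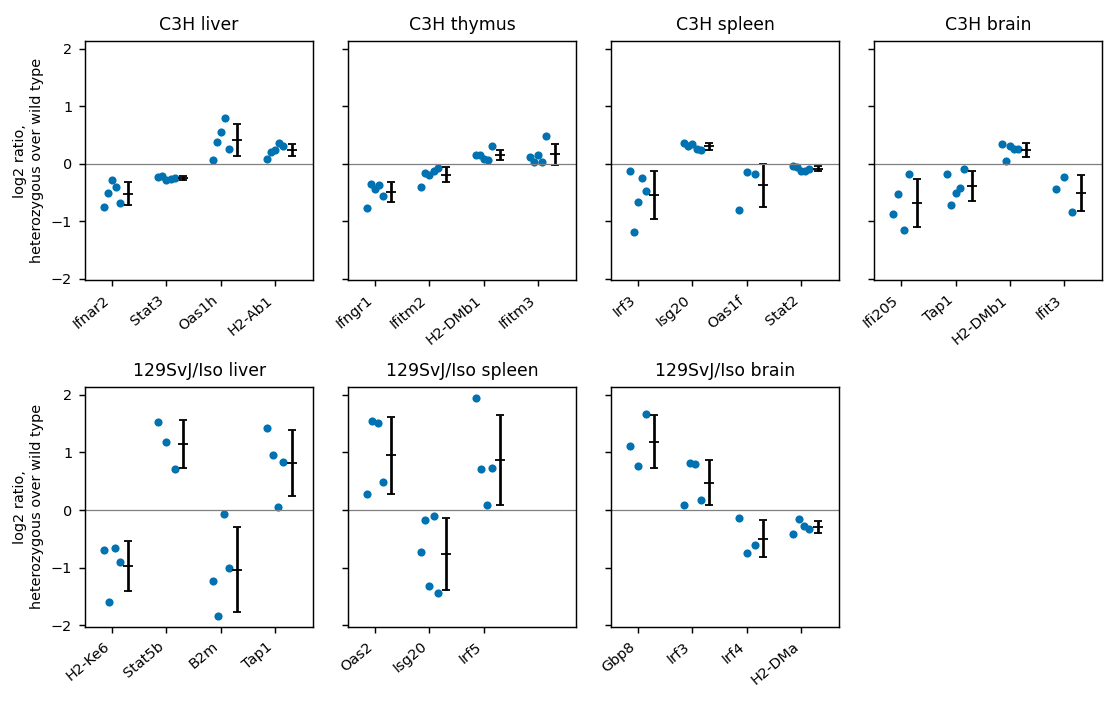
Log2 ratio, heterozygous over wild type, of single mice (points) for up to 4 members per group with the smallest unadjusted p among those of 1 sign in every mouse measured; dashes mark the mean and bars the SD. The C3H points of Stat3 in liver (-0.29 to -0.22) and Stat2 in spleen (-0.13 to -0.03) lie closest together, and no gene shown passed the adjusted test.

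The Oas family, whose active enzymes make the signal that starts RNA decay, differed among themselves. Oas1h was above 0 in all 5 C3H livers, with 0.07, 0.38, 0.55, 0.80 and 0.25 (mean 0.41 ± 0.28, SD; adjusted p = 0.36), and averaged 1.14 ± 1.07 in 129SvJ/Iso liver with 3 of 4 mice above 0. Oas2 had 0.27, 1.54, 1.52 and 0.48 in 4 129SvJ/Iso spleens (mean 0.95 ± 0.67), and 0.05 ± 0.62 in C3H liver. Oasl1 was below 0 in all 5 C3H brains (-0.20 ± 0.10), and Oas1f in the 3 C3H spleens measured (-0.38 ± 0.38, and -0.95 when turned). Oas1h was thus the 1 Oas gene with a mean above 0.4 in the livers of both strains, among those tested in both.

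In C3H brain, Ifi205, an interferon-inducible DNA-binding protein of the p200 family, had -0.87, -0.52, -1.15 and -0.18 in the 4 mice measured (mean -0.68 ± 0.42, SD; adjusted p = 0.57). Ifit3, an antiviral protein of the Ifit family, had -0.44, -0.23 and -0.84 in 3 brains (mean -0.51 ± 0.31). The direction of C3H brain is only weakly settled, and the Ifit3 mean changed sign when the Cy5 arrays were turned. The promoters of Ifi205 and Ifit3 printed above both hold 2 copies of the response element core. Over the 10 members with that core, 6 had a mean below 0 in C3H brain (median -0.02), and 16 of the 31 members matched to a promoter without it did (median 0.00). Both medians lay near 0.

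In liver the members with the core lay lower in both strains, with a median of -0.15 in C3H (6 of 8 below 0) and -0.39 in 129SvJ/Iso (7 of 9), against -0.07 (20 of 32) and 0.13 (11 of 27) for the matched members without it. In spleen of both strains and in 129SvJ/Iso brain the medians had the opposite order, 0.12 with the core and -0.07 without in C3H spleen, -0.04 and -0.12 in 129SvJ/Iso spleen, and 0.10 (4 members) and -0.10 in 129SvJ/Iso brain. C3H spleen and 129SvJ/Iso brain are groups of doubtful direction. Their medians with and without the core were not recomputed with the sign turned, so their order rests on the signs as deposited. All these medians are a description, and 10 promoters are few.

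Gbp8, a GTP-binding protein of the guanylate-binding family, had 1.12, 0.77 and 1.68 in the 3 129SvJ/Iso brains measured (mean 1.19 ± 0.46, SD), but -0.08 when turned. In C3H liver it was above 0 in all 5 mice with 0.36, 0.20, 1.15, 2.07 and 0.18 (mean 0.79 ± 0.82). The Ifitm proteins, which keep viruses from fusing with the cell, gave small values in C3H thymus. Ifitm2 was below 0 in all 5 thymi (-0.19 ± 0.13) and Ifitm3 above 0 in all 5, with 0.11, 0.03, 0.15, 0.04 and 0.48 (mean 0.16 ± 0.19).

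The class I genes had means below 0 in C3H liver in 5 of 5 members tested, with a median of -0.31. For H2-M3, measured in mice 1, 3 and 5, the mice differed in sign with -0.50, 1.17 and -1.32 (mean -0.22 ± 1.27, SD). B2m had -0.68, 0.03, -1.25, -0.94 and -0.25 in the 5 C3H livers (mean -0.62 ± 0.52, SD, 0.652-fold; adjusted p = 0.36). Mice 3 and 4 were lowest, mouse 2 lay at the level of the wild-type pool, and the spread between mice was nearly as large as the mean. H2-K1, a classical class I heavy chain, had -0.52, 0.20, -0.66, -0.56 and -0.10 (mean -0.33 ± 0.37), and H2-Q10, a class I molecule secreted by liver, had -0.34, 0.31, -0.89, -0.58 and -0.03 (mean -0.31 ± 0.46). Tap1 averaged -0.24 ± 0.29 with 4 of 5 mice below 0. Mice 3 and 4 were the lowest for B2m, H2-K1, H2-Q10 and Tap1, and mouse 2 or mouse 5 the highest. In these livers mice 2 and 5 were the 2 highest for 10 of 36 members and 15.5% of probes. These members included Irf2, Ifi27, Isg20, Isg20l2, Ifitm2 and Ifitm3, so this pair of mice was not particular to class I.

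In 129SvJ/Iso liver 4 of 5 class I members had a mean below 0 and their median was -0.74. B2m had -1.23, -1.84, -0.07 and -1.01 in mice 1, 2, 3 and 5 (mean -1.04 ± 0.74, SD, 0.488-fold; adjusted p = 0.35), and H2-K1 -0.72, -1.64, 0.10 and -0.66 in the same mice (mean -0.73 ± 0.71). Tap1 was the exception, above 0 in all 4 mice with 1.42, 0.95, 0.05 and 0.84 (mean 0.81 ± 0.57). Mouse 3 was nearest to 0 for all 3 genes, whichever their sign. With the sign turned on the Cy5 arrays, B2m averaged 0.10 in C3H liver and 0.11 in 129SvJ/Iso liver, so its direction there rests on the reading of the dye orientation.

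**Figure D3:**
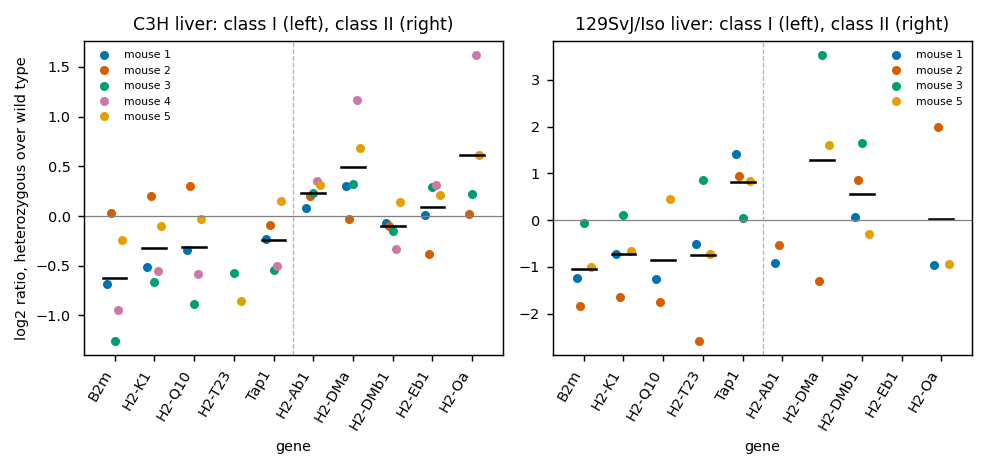
Log2 ratio, heterozygous over wild type, of MHC members in the livers of single mice (points), C3H on one panel and 129SvJ/Iso on the other, each panel with its own vertical scale; bars mark the mean where at least 3 mice had a value. The class I members B2m, H2-K1 and H2-Q10 lie mostly below 0 in both strains, and Tap1 lies below 0 in 4 of 5 C3H mice and above 0 in all 4 129SvJ/Iso mice.

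Outside liver, B2m averaged -0.21 ± 0.22 in C3H thymus, -0.17 ± 0.23 in C3H spleen (-0.15 when turned), 0.16 ± 0.45 in C3H brain, -0.21 ± 0.47 in 129SvJ/Iso spleen and 0.33 ± 0.38 in 129SvJ/Iso brain (-0.06 when turned), SD over mice. All of these means lay within 1 SD of 0. H2-K1 averaged between -0.30 and 0.20 in those groups, with -0.21 in C3H spleen and -0.30 in 129SvJ/Iso brain when turned. In C3H brain Tap1 was below 0 in all 5 mice, with -0.17, -0.73, -0.52, -0.42 and -0.09 (mean -0.39 ± 0.26; adjusted p = 0.57), and H2-T23, a nonclassical class I molecule that is a ligand of natural killer cell receptors, was above 0 in 4 of 5 (mean 0.61 ± 0.58). A second H2-T23 probe averaged -0.09 ± 0.21 in the same brains and did not share that sign.

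The mice kept an order for B2m across organs. In C3H thymus the 5 mice had -0.17, 0.08, -0.48, -0.37 and -0.09, and in C3H spleen -0.18, 0.16, -0.43, -0.32 and -0.06. In liver, thymus and spleen alike mouse 2 was highest, then mice 5, 1, 4 and 3. Of the 10190 probes with values in all 5 mice in these 3 organs, 2 (0.0196%) had an identical order in all 3, and B2m was 1 of the 25 members so measured. Between any 2 of these organs 0.871 to 1.06% of probes shared an order, and so did H2-DMb1 in liver and thymus and H2-DMa in liver and spleen. The order was looked for after the values had been seen. The direction of C3H spleen is doubtful, and the order was not recomputed with its Cy5 arrays turned. On the spleen arrays with heterozygous RNA in Cy5, mouse 3 (-0.135) lay above mouse 4 (-0.175), the reverse of that order. The order was the same in all 3 organs with arrays centred on their median, with plain means of all arrays and with extreme values kept. It was shared by 0 of the 3 organ pairs after scaling the arrays within a group, and by 1 of 3 with only the arrays that had heterozygous RNA in Cy3.

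In C3H liver the order was the same on the arrays with heterozygous RNA in Cy3 (0.17 for mouse 2 down to -1.25 for mouse 3) and in Cy5 (-0.11 down to -1.26). The array medians of these livers spanned -0.015 to 0.067. Brain did not follow: there mouse 1 was highest with 0.89 and mouse 4 lowest with -0.31.

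In 129SvJ/Iso mice B2m had the order 3, 5, 1, 2 over the 4 mice shared by liver and spleen. Of 3114 probes 6.9% had 1 order in both organs, among members B2m and Isg20l2 of 15 measured. In the 5 spleens (-0.02, -0.69, 0.31, -0.72 and 0.05) the full order of B2m was shared by Irf1, H2-Ab1, Ifi27l2a and Ifnar2, that is by 5 of 25 members with B2m itself, against 4.48% of probes. In C3H liver H2-K1 and H2-Q10 had the order of B2m (3 of 36 members with B2m, 2.98% of probes), and H2-K1 and Ifitm3 had it in 129SvJ/Iso liver (3 of 20 members, 13.9% of probes). In 129SvJ/Iso liver that count, which includes B2m itself, lies near the share of all probes and is no result about the members.

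**Figure D4:**
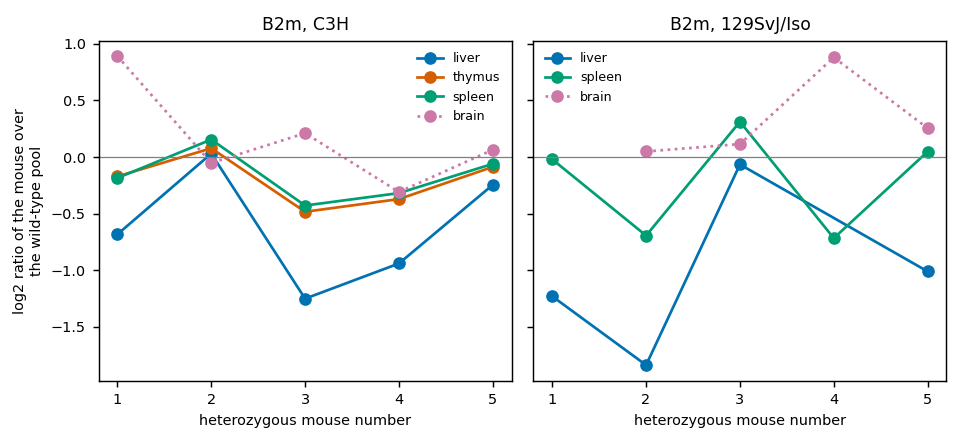
Log2 ratio of B2m, heterozygous over wild type, for mice 1 to 5 (horizontal axis) with 1 line per organ, C3H and 129SvJ/Iso on separate panels; lines only join values of 1 organ, since mice have no order of their own. The C3H lines of liver, thymus and spleen rise and dip at the same mice, with the widest range in liver (-1.25 to 0.03), and the brain line does not. The direction of C3H spleen and 129SvJ/Iso brain is doubtful, and values are shown with the signs as deposited.

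Most class II genes lay on the other side of 0 in C3H liver. There 4 of 5 had a mean above 0 and the median was 0.24. H2-Ab1, the beta chain of the class II molecule I-A, was above 0 in all 5 livers, with 0.08, 0.20, 0.24, 0.35 and 0.31 (mean 0.24 ± 0.11, SD; adjusted p = 0.36). H2-DMa averaged 0.49 ± 0.46 and H2-Oa 0.62 ± 0.71 (n = 4), both highest in mouse 4 with 1.17 and 1.62. H2-Eb1 averaged 0.09 ± 0.29 and H2-DMb1 -0.10 ± 0.17. In 129SvJ/Iso liver the 3 class II members tested had means above 0 (0.02 to 1.28), but single mice ranged from -1.30 to 3.53 for H2-DMa, 2 of 3 mice were below 0 for H2-Oa, and H2-Ab1, with too few values for a test, had -0.91 and -0.53 in the 2 livers measured.

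The other organs differed among themselves. In C3H thymus the 5 class II means were all above 0 but small apart from H2-DMa (median 0.13), in C3H spleen 4 of 5 were below 0 (median -0.11; turned, 5 of 5 and -0.24), and in C3H brain 3 of 5 were above (median 0.15). In 129SvJ/Iso spleen 3 of 3 were below 0 (median -0.30) and in 129SvJ/Iso brain 4 of 5 (median -0.29), where turned 4 of 5 were above 0 (median 0.20). There H2-DMa was below 0 in all 4 mice (-0.29 ± 0.11), but 0.97 when turned.

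H2-DMb1 gave opposite signs on its 2 probes. The probe with more values had 0.35, 0.04, 0.31, 0.26 and 0.26 in the 5 C3H brains (mean 0.24 ± 0.12, SD), and the other was below 0 in all 5 (-0.29 ± 0.17). In C3H thymus they averaged 0.15 ± 0.09 and -0.34 ± 0.72. No direction can be given for this gene. Over the 9 members with more than 1 probe, 34 of 53 pairs of probe means had the same sign.

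All 10 H2 genes and Tap1 lie on chromosome 17, as Dll1 does, whereas B2m lies on chromosome 2. The H2 genes lie 18.6 to 21.9 Mb from Dll1. In C3H liver the members on chromosome 17 had a median of -0.11 (10 tested) and the others -0.07 (35 tested). In 129SvJ/Iso spleen the chromosome 17 members had -0.30 (8 tested, 7 below 0) against -0.02 (32 tested). The 2 medians were 0.01 and 0.02 in C3H thymus, -0.04 and 0.00 in C3H spleen, and -0.01 and 0.00 in C3H brain. In 129SvJ/Iso mice they were -0.35 (4 of 8 below 0) and -0.11 in liver, and -0.13 and 0.03 in brain. A part of the shared chromosome in these values was not tested. H2-Ke6, an MHC-linked gene of fatty acid metabolism, had -0.70, -1.60, -0.66 and -0.90 in the 4 129SvJ/Iso livers (mean -0.97 ± 0.44, SD; adjusted p = 0.35), all below 0, and -0.11 ± 0.23 in C3H liver.

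Markers of cells that carry MHC were read beside these values. Of 11 B cell, 11 T cell and 14 macrophage and dendritic cell markers, 6, 8 and 8 had a probe. In C3H liver the B cell markers had a median of 0.06 (4 of 6 above 0, range -0.12 to 0.69) and the macrophage and dendritic cell markers 0.07 (6 of 8 above 0, range -0.11 to 0.24). Mouse 4, the highest for H2-DMa and H2-Oa, was also highest in the median of both lists (0.39 and 0.17). The T cell markers had a median of 0.00 in C3H liver and -0.13 in C3H thymus (6 of 8 below 0). In spleen the B cell markers lay below 0 in 4 of 5 measured in C3H (median -0.24, range -0.37 to 0.33; turned, 4 of 5 and -0.15) and in 5 of 6 in 129SvJ/Iso (median -0.43, range -1.002 to 0.19), as most class II members did. In C3H spleen 7 of 8 macrophage and dendritic cell markers lay below 0 (median -0.12, turned 6 of 8 and -0.20). In 129SvJ/Iso spleen 4 of 6 of them lay above 0 (median 0.22), on the other side from class II. The part of any of these markers in the class II values was not tested. None of these markers passed the adjusted limma test in any group. At an unadjusted p under 0.05, 5 of the 130 tests of these markers were higher and 6 lower (8.46% of the tests), which is within the 4.78 to 14.1% of all probes in the 7 groups. Higher were Ms4a1 in C3H liver, Vpreb3 in C3H thymus, Cd22 in C3H brain, Cd5 in 129SvJ/Iso spleen and C1qb in 129SvJ/Iso liver. Lower were Cd79b, Cd22 and Lyz2 in C3H spleen (2.86% of probes), Cd3e in C3H liver, Cd5 in C3H thymus and Thy1 in 129SvJ/Iso liver. With C3H spleen turned, 0 of 5 B cell markers and 1 of 8 macrophage and dendritic cell markers had such a p (6.21% of probes). With 129SvJ/Iso brain turned, 2 of 6 B cell markers did (17.1% of probes).

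Of 57 further genes of interferon signalling and antigen presentation that are no members, 32 had a probe, and none passed the adjusted limma test in any group. In C3H liver 2 were higher and 5 lower at an unadjusted p under 0.05 (30 tested, median 0.08), against 6.11 and 7.66% of all probes. Among these, the class I folding chaperones Calr (-0.59 ± 0.31, SD) and Canx (-0.60 ± 0.36), the kinase Tyk2 (-0.36 ± 0.30) and Usp18, a brake on type I interferon signalling (-0.55 ± 0.33), were below 0 in all 5 livers. Cxcl9 was the remaining lower gene, with -0.71 ± 0.27 and 3 of 3 measured below 0. The 2 higher genes were Tapbp and Eif2ak2. Tapbp, which tethers class I to the peptide transporter, was above 0 in the 4 measured (0.28 ± 0.17). Eif2ak2 was above 0 in 4 of 5 livers (0.24 ± 0.15). Calr and Canx also serve other proteins of the endoplasmic reticulum. In C3H thymus 3 of 31 were lower (5.31% of probes), among them Jak1 (-0.46 ± 0.33, 5 of 5 below 0), the kinase that works with both Ifnar2 and Ifngr1.

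In the remaining groups the counts of the list were 0 of 28 in C3H spleen (5.95% of probes in either direction), 1 higher and 2 lower of 32 in C3H brain (3.73 and 5.03%), 1 higher of 21 in 129SvJ/Iso liver (7.86%), 1 lower of 27 in 129SvJ/Iso spleen (2.35%) and 2 lower of 26 in 129SvJ/Iso brain (2.85%). Turned, they were 1 lower in C3H spleen and 2 higher in 129SvJ/Iso brain. Its medians lay between -0.13 and 0.08 in the 7 groups. Tapbp averaged -1.11 ± 0.38 in 129SvJ/Iso spleen (4 of 4 below 0), on the other side of 0 from C3H liver.

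Whether the strains differed was tested directly, as C3H minus 129SvJ/Iso, in the 3 organs with single mice in both. No member passed in liver, spleen or brain (limma, smallest adjusted p 0.115, 0.604 and 0.422), while 38 of 13201 probes (0.288%) did in liver and none in the other 2 organs. At an unadjusted p under 0.05 there were 5 of 35 members in liver (19.3% of probes), 3 of 35 in spleen (7.03%) and 3 of 36 in brain (9.9%). The members' share was no higher than that of all probes in liver and brain.

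Tap1 gave the smallest p in liver, with a mean of -0.24 in C3H and 0.81 in 129SvJ/Iso (difference -1.06 ± 0.30, SE; adjusted p = 0.115). No C3H liver except that of mouse 5 (0.15) reached the lowest 129SvJ/Iso value (0.05). Isg20 came next with -0.26 in C3H and 0.70 in 129SvJ/Iso liver (difference -0.95 ± 0.27), and in spleen it led with 0.30 in C3H and -0.76 in 129SvJ/Iso (difference 1.06 ± 0.32; adjusted p = 0.604). In both organs no mouse of one strain overlapped the other strain in its mean over both dyes, with opposite order. The share of all probes without such overlap is not given here. With the Cy5 arrays turned in C3H spleen, Isg20 differed by 0.81 ± 0.34 (adjusted p = 0.62) and Oas1f led (-1.63 ± 0.50; adjusted p = 0.479). H2-Ke6 in liver differed by 0.85 ± 0.26, Irf3 in spleen by -0.69 ± 0.31 and Oas1f in spleen by -1.06 ± 0.46. In brain the leading members were Irf2bp1 (-0.53 ± 0.20), H2-DMb1 (0.54 ± 0.22) and Ifi27l2a (-0.96 ± 0.40), SE in each case. These ranks rest on the direction of 129SvJ/Iso brain. With its Cy5 arrays turned they differed by -0.32 ± 0.27, 0.04 ± 0.22 and -0.65 ± 0.40, and 1 member passed, Ifi209, a p200 family gene, with a mean of 0.00 in C3H and 1.33 in 129SvJ/Iso brain (difference -1.33 ± 0.27; adjusted limma p = 0.0257), while 732 of 15487 probes (4.73%) passed. As deposited, Ifi209 differed by 0.04 between the strains in brain, so no direction can be given. With the signs as deposited, mean ratios were opposite in the 2 strains for 11 of 35 members in liver, 17 of 35 in spleen and 16 of 36 in brain. The strain and organ fits take 1 spread per probe for groups whose spread differed, with 129SvJ/Iso mice the more variable.

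**Figure D5:**
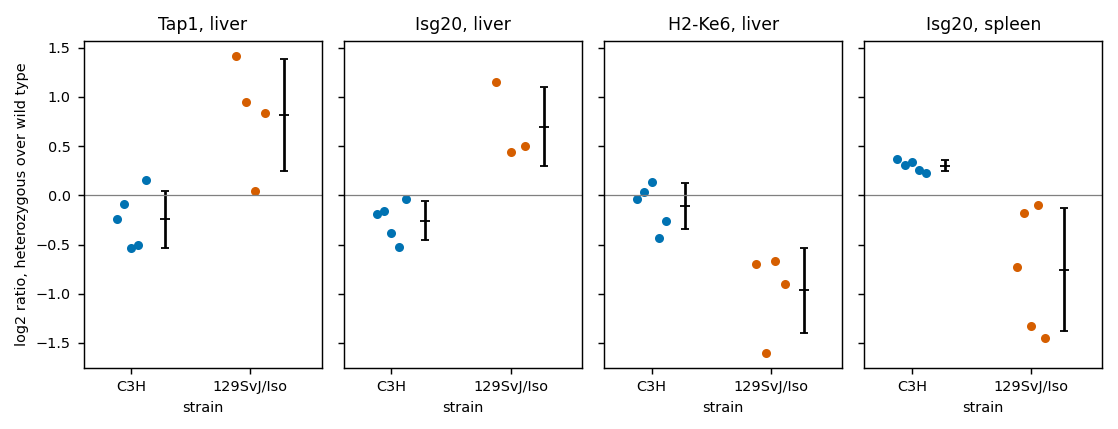
Log2 ratio, heterozygous over wild type (vertical axis), of Tap1, Isg20 and H2-Ke6 in liver and of Isg20 in spleen, 1 panel each, for single C3H and 129SvJ/Iso mice (points, horizontal axis); dashes mark the mean and bars the SD. The points of Isg20 and H2-Ke6 do not overlap between the strains, and for Tap1 the C3H mouse at 0.15 lies above the lowest 129SvJ/Iso mouse at 0.05.

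Whether the ratio differed between the organs of a strain was tested with a moderated F. In C3H mice 41 of 18031 probes passed (0.227%) and no member did (smallest adjusted p 0.158), and in 129SvJ/Iso mice 0 of 9717 probes passed. At an unadjusted p under 0.05 there were 5 of 39 members in C3H (11.4% of probes) and 5 of 28 in 129SvJ/Iso (16.4% of probes). Irf3 led in C3H (F = 7.09) through spleen, Ifngr1 came next (F = 5.88) through thymus, and H2-DMb1 followed (F = 4.94). In 129SvJ/Iso mice B2m led (F = 6.01, adjusted p = 0.226), with means of -1.04 in liver, -0.21 in spleen and 0.33 in brain, and all 4 livers lay below and all 4 brains above 0. With the Cy5 arrays of the doubtful groups turned, Isg20 led in 129SvJ/Iso mice (F = 6.81, adjusted p = 0.243) and B2m had F = 4.04, while in C3H mice Ifngr1 led (F = 4.27) and Irf3 had F = 1.13; no member passed. In C3H mice B2m had the same order of organs, -0.62 in liver, -0.17 in spleen and 0.16 in brain, with thymus at -0.21 (F = 3.73). Irf8, a factor of macrophages and B cells, had 0.57 in 129SvJ/Iso liver, -0.39 in spleen and 0.72 in brain (0.53 when turned; F = 4.93), and Isg20 had F = 5.06. A second Irf8 probe averaged 0.17, 0.10 and -0.09 in these organs as deposited. It had the opposite sign in spleen and brain and did not share the organ pattern. The organs came from the same mice, and with the mouse as a block 10 probes passed in C3H and no member did in either strain.

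The 129SvJ/Iso thymus was measured as pools, so its 6 arrays are technical repeats and its values a description. Of 42 members on at least 4 arrays, 18 had a mean below 0 and 24 above, with a median of 0.06 against 0.24 over 16186 probes, of which 40% were below 0. The 7 members of 1 sign on every array (22.9% of probes) were all below 0. Stat3 had -1.55, Irf1 -1.02, Ifnar2 -0.75 and Irf2bp1 -0.68 (4 arrays). Isg20l2 (-0.68), Ifi27 (-0.62) and Stat2 (-0.59) completed the 7 and are named because the count is small. B2m had -0.11, Tap1 -0.35 and H2-K1 0.05 in the pools. Ifnar2 had -0.27 and Stat3 -0.16 in C3H thymus, also below 0, while Irf1 had 0.02 there. The 28 further pathway genes measured in the pools had a median of -0.42, with 18 below 0.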

How the data were processed

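RNA of single organs was hybridised with RNA of a wild-type pool on 2-colour cDNA arrays, and 86 arrays were used. The authors deposited 1 table of log2 ratios; how these were normalized is not given in any source used here. Arrays have no read depth, so the number of mice limits the precision. Values were read as heterozygous over wild type, already turned for the dye; the numerator was taken from genes the study gives as lower. Each array held 19 to 618 spots at 1 constant value of size 14.88 to 17.54, whose sign followed the dye, and values of size over 12 were treated as missing (chosen after seeing the data). Of 20794 probes 12771 had 1 symbol in the platform annotation, 8023 had none and 0 had several.

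Arrays of a mouse were averaged within and then over dye orientations. limma 3.58.1 in R 4.3.3 (lmFit, eBayes, two-sided, threshold 0.05, Benjamini-Hochberg over all probes) tested mice against 0 (at least 3 mice), the strain difference and a moderated F over organs. The reference was 1 pool per group, so the spread of the wild-type mice is not in the test. Named were, per group, the 4 members of smallest p among those of 1 sign in every mouse, the 3 of smallest p per strain and organ comparison, the 4 of largest mean among those of 1 sign on every array in the thymus pools, and B2m, Irf1, Tap1 and H2-K1 (1 further item of the rule is not reported here); Ifi30, Gbp8, H2-Q10, H2-Oa, H2-Eb1, Oasl1, Ifngr2, and other values outside this rule were chosen after their values were seen. The members and lists were chosen with earlier results of these data known. Same-numbered samples come from the same mouse; deviations of a mouse correlated between organs with a median of 0.0005 (C3H) and 0.0101 (129SvJ/Iso). Scripts were tested on simulated data. Python 3.11.15, pandas 2.3.3, NumPy 2.4.6 and matplotlib 3.10.9 were used. Alternatives changed the array centring and scaling, the averaging, the dye, the probes of a gene, the filter, the model and the mice.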

Additional observations from a re-analysis of the deposited data

Results flagged for a closer look

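In 1 of 50 groups of single-mouse values of named genes, 1 mouse lay far from the rest: Ifitm3 in C3H thymus had 0.48 in mouse 5, against 0.03 to 0.15 in the other 4. Chance gives about 1 such mouse in 20 groups.

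In 7 pairs of groups every mouse of one lay above 0 and every mouse of the other below. The share of all probes with such a pair is not given here, so the count is no result about the members. Within single groups, 12.2 to 34.4% of probes had 1 sign in every mouse measured. Isg20 accounted for 4 of them: C3H minus 129SvJ/Iso was -0.95 in liver and 1.06 in spleen, liver minus spleen was -0.56 in C3H and 1.45 in 129SvJ/Iso. B2m in 129SvJ/Iso liver minus brain was -1.36, and Ifitm3 in the same pair was -0.89. Stat2 in C3H thymus minus spleen was 0.39. The strain differences of Isg20 had adjusted limma p of 0.116 in liver and 0.604 in spleen; the pairwise organ differences were not tested on their own, only by the F over organs. C3H spleen and 129SvJ/Iso brain enter several of these pairs, and their direction is open.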

How the results depend on the processing

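Of 180 recomputed counts of called members 178 stayed at 0, the turned fits named last not included. In liver Tap1 passed as C3H minus 129SvJ/Iso (1 member; -1.31, adjusted limma p = 0.0403) without 129SvJ/Iso mouse 3, against 0.1 to 0.25 in the other 14 fits, and 253 of 10690 probes then passed. With plain means of all arrays 1 member, Oasl1, passed the F over C3H organs (adjusted limma p = 0.00312); no other setting had enough spleens to test it. With the Cy5 arrays turned in C3H spleen and 129SvJ/Iso brain (chosen after seeing the data), 1 member, Ifi209, passed the strain difference in brain, and 0 passed it in spleen or the F in either strain, where 114 probes in C3H and 11 in 129SvJ/Iso did.

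With the mouse as a replicate block, 10 probes against 41 passed the F in C3H and 0 members in either strain; at an unadjusted p under 0.05 there were 5 members in C3H and 3, against 5 without the block, in 129SvJ/Iso. The block ended no call of a member.

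Of 120 recomputed member medians 11 moved by more than the spread between mice. In C3H spleen it was 0.13 with heterozygous RNA in Cy5 only. In C3H brain it was -0.10 in Cy3 only and ranged from -0.0048 to 0.036 over left-out mice (the highest without mouse 1). In 129SvJ/Iso liver it was 0.08 with plain means, 0.12 in Cy3 only and -0.30 without mouse 1. In 129SvJ/Iso brain it was -0.051 with scaled arrays, 0.27 in Cy3 only, -0.13 in Cy5 only, and -0.051 to 0.12 over left-out mice.

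Of 1038 recomputed gene values 66 changed sign, none of them called in either setting; the cause was not tested. With all arrays, mouse as a random block, the values were H2-K1 0.056 in C3H brain, Irf1 -0.049 in C3H liver, Irf1 -0.046 in C3H spleen, Irf1 -0.0062 in C3H thymus. With all probes of a gene averaged, the values were H2-DMb1 -0.023 in C3H brain, H2-DMb1 -0.094 in C3H thymus. With arrays centred and scaled within a group, the values were Irf1 -0.070 in C3H liver, H2-K1 -0.026 and Irf1 -0.026 in C3H spleen, Irf1 -0.030 in C3H thymus. With arrays centred on their median, the values were Irf1 -0.037 in C3H liver. With extreme constant values kept, the values were Irf1 -1.65 in C3H brain. With heterozygous RNA in Cy3 only, the values were H2-DMa 0.68, H2-K1 -0.093 and Irf4 0.44 in 129SvJ/Iso brain, H2-K1 0.067 in C3H brain, Irf1 -0.54 in C3H liver, H2-K1 -0.090 and Tap1 -0.11 in C3H spleen, B2m 0.010 in C3H thymus. With heterozygous RNA in Cy5 only, the values were Irf3 -0.12 in 129SvJ/Iso brain, H2-K1 0.038 and Tap1 -0.074 in 129SvJ/Iso spleen, H2-K1 0.033 in C3H brain, Irf1 -0.39 and Oas1f 0.88 in C3H spleen, H2-DMb1 -0.069, Ifitm3 -0.030, Irf1 -0.18 and Tap1 -0.047 in C3H thymus. With plain mean of all arrays of a mouse, the values were Irf1 0.11 in 129SvJ/Iso brain, H2-K1 0.10 in C3H brain. With the sign turned on Cy5 arrays, the values were B2m -0.057, Gbp8 -0.076, H2-DMa 0.97, H2-K1 -0.30, Irf1 0.15 and Irf4 0.56 in 129SvJ/Iso brain, B2m 0.11 and Irf1 0.076 in 129SvJ/Iso liver, B2m 0.029 and Isg20 0.018 in 129SvJ/Iso spleen, H2-DMb1 -0.077, Ifit3 0.51 and Tap1 0.075 in C3H brain, B2m 0.10 and Irf1 -0.55 in C3H liver, H2-K1 -0.21 and Tap1 -0.085 in C3H spleen, B2m 0.22 and H2-K1 0.0022 in C3H thymus. Over left-out mice the ranges were -0.12 to 0.11 for Tap1 in 129SvJ/Iso spleen, -0.021 to 0.28 for B2m in C3H brain, -0.074 to 0.055 for H2-K1 in C3H brain, -0.070 to 0.14 for H2-K1 in C3H spleen, -0.12 to 0.23 for Irf1 in C3H spleen, -0.031 to 0.053 for Tap1 in C3H spleen, -0.18 to 0.25 for Irf1 in C3H thymus, -0.11 to 0.18 for Tap1 in C3H thymus.

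The counts at an unadjusted p under 0.05 ranged from 4 to 15 in C3H liver, 1 to 6 in C3H thymus, 0 to 4 in C3H spleen, 4 to 13 in C3H brain, 0 to 10 in 129SvJ/Iso liver, 1 to 3 in 129SvJ/Iso spleen and 0 to 9 in 129SvJ/Iso brain. The shares of all probes in these alternative fits are not given here, so the ranges are no result about the members. The few mice, 3 to 5 per gene and group, limit what could be called.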

Other observations

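Oasl1, which belongs to the Oas family without making its signal molecule, had values in 3 C3H spleens when arrays of a single dye orientation were allowed, 1.48, 1.96 and 1.80 in mice 3, 4 and 5, against -0.38 to -0.10 in the 5 brains, -0.69 to 0.51 in the 5 livers and -0.24 to 0.32 in the 5 thymi. No spleen overlapped another organ, and the share of all probes without overlap is not given here. The direction of the spleen arrays is open, and mouse 4 had 1 orientation only. Under the rule that asks for both orientations the gene was measured in 2 spleens (1.48 and 1.80) and not tested there.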
